A study of Rattus norvegicus with 6 samples.

Results

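The miR-181 family was taken as every entry named miR-181a to miR-181d, with or without a locus number and an arm, in a table of miRNAs sequenced from rat testis. The choice used names only and gave 8 of the 721 listed miRNAs, 4 from the 5p arm and 4 from the 3p arm. The table covered 6 libraries of testicular tissue from Sprague-Dawley rats, 3 labelled as STZ-induced diabetes and 3 as normal. Streptozotocin (STZ) destroys the insulin-producing beta cells of the pancreas. The methods add that the diabetic rats ate a high-fat diet before a single STZ injection and that control rats were injected with citrate buffer. Testes of both groups were taken at week 8. The control diet was not given in the sources used here, so diet and STZ cannot be told apart. The rats were adult males, and no exact age was found in those sources. A diabetic rat in this study was one whose blood glucose stayed above a fixed limit after the injection.

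A miRNA is cut from one arm of a short RNA hairpin, and the strand that is loaded into Argonaute represses mRNAs that pair with its seed, bases 2 to 8 from its 5′ end. The miR-181 family is conserved across vertebrates and comes from 3 genomic clusters, each with a pair of hairpins. It is best known in developing T lymphocytes, where miR-181a sets the sensitivity of the T cell receptor by repressing phosphatases, and it is expressed in many other tissues. Its 5p arm is the usual guide strand, and the 3p arm is usually the scarcer partner.

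RefSeq gave a mature sequence for all 8 members (assembly GRCr8, a rat genome build). The 5p arms are shown first because all 4 carry one seed, given in capitals, and differ only after it.
miR-181a-5p: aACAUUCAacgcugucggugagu
miR-181b-5p: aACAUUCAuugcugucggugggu
miR-181c-5p: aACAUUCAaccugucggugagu
miR-181d-5p: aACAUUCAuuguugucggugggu
From miR-181a-5p to miR-181b-5p the substitutions are A9U, C10U and A21G, with positions counted from 1 at the 5′ end. From miR-181b-5p to miR-181d-5p there is 1 substitution, C12U. miR-181c-5p is 22 bases long and equals the 23-base miR-181a-5p with 1 base deleted. Among the 492 of 539 known listed miRNAs that had a RefSeq mature sequence, no miRNA outside the family shared the ACAUUCA seed.

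The 3p arms are shown because those of miR-181a, unlike its 5p arm, differ between the loci, and because they carry 3 different seeds (capitals).
miR-181a-1-3p: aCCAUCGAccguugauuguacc
miR-181c-3p: aCCAUCGAccguugaguggacc
miR-181a-2-3p: aCCACCAAccguugacugu
miR-181b-1-3p: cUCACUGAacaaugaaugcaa
miR-181a-1-3p and miR-181c-3p share a seed and differ by U16G and U19G. No other listed miRNA with a known sequence carried any of these seeds.

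In GRCr8, Mir181a-1 and Mir181b1 are nearest neighbours on the plus strand of chromosome 13. There miR-181a-5p lies at chr13:52037081-52037103, miR-181a-1-3p at chr13:52037121-52037142, miR-181b-5p at chr13:52037263-52037285 and miR-181b-1-3p at chr13:52037303-52037323. Both hairpins overlap an annotated lncRNA gene, LOC108352541, and Mir181a-1 also overlaps the miRNA gene Mir3570. Mir181a2 and Mir181b2 are neighbours on chromosome 3, with a second, identical copy of miR-181a-5p at chr3:43025601-43025623 and miR-181a-2-3p at chr3:43025646-43025664. They lie within the bounds of Nr6a1, which encodes a nuclear receptor known as germ cell nuclear factor, and of the lncRNA gene LOC120101539. Whether they fall in an exon or an intron was not determined. The Mir181b2 hairpin also contains the whole miR-181b-5p sequence. Mir181c and Mir181d are neighbours on chromosome 19 and overlap no annotated gene, with miR-181c-5p at chr19:40888314-40888335, miR-181c-3p at chr19:40888353-40888374 and miR-181d-5p at chr19:40888484-40888506. The other arms of these hairpins are not analysed here. These positions are RefSeq's and were not used to make the deposited values.

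A pair of hairpins is printed to show where the measured arms sit (arms in capitals). The 3p arm of Mir181a2 was seen on only 2 to 5 reads per library, whereas both arms of Mir181c were at similar levels.
Mir181a2, chr3:43025563-43025679, plus strand: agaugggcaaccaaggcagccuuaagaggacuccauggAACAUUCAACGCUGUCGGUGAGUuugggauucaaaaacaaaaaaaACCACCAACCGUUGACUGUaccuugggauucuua
Mir181c, chr19:40888291-40888396, plus strand: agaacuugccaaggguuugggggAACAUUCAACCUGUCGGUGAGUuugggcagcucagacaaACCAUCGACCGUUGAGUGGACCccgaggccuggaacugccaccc

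Levels are in CPM, the share of a library's listed reads that a miRNA took, put on a fixed scale. The libraries held 305476 to 549446 such reads, so 1 read was worth 1.82 to 3.27 CPM, and 3 reads, the smallest level treated as measurable, were 5.46 to 9.82 CPM. Testis markers were present at high levels, with the germ-cell list led by miR-34c-5p summing to 311135 to 333050 CPM in diabetic and 306144 to 355274 CPM in normal libraries. Counting intervals below are exact 95% Poisson intervals. They and the 3-read floor cover counting error only, since no molecular identifiers were stated.

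miR-181a-5p dominated the family. It was at 5198, 5569 and 5680 CPM in diabetic replicates 1, 2 and 3 and at 4889, 5404 and 4821 CPM in normal replicates 1, 2 and 3. It ranked 31 of 721 by mean CPM and took 85.1% to 89.2% of the family's reads in every library. With 1588 to 3121 reads per library it was the most precisely counted member. Its reads from Mir181a-1 and Mir181a2 are identical and cannot be told apart.

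The second member, miR-181b-5p, was at 576.2, 349.4 and 555.1 CPM in the diabetic group and at 432.9, 499.4 and 352.7 CPM in the normal group. Diabetic replicate 2 was the lowest of all 6 libraries, and its counting interval of 292 to 415 CPM lay below those of the other diabetic libraries, which began at 494 and 495 CPM. miR-181d-5p followed with 121.1, 94.1 and 107.4 CPM in diabetes against 108.8, 203.0 and 137.7 CPM in normal testes. Normal replicate 2 was the highest, with a counting interval of 165 to 247 CPM, and that interval lay wholly above the interval of normal replicate 1. The spread of both members within a group was therefore larger than counting error alone.

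Of the passenger-side arms, miR-181a-1-3p was at 121.1, 121.0 and 138.3 CPM in diabetic libraries and 117.9, 117.7 and 107.5 CPM in normal ones. All diabetic values were above all normal values, but by as little as 121.0 against 117.9 CPM, which stood for 45 and 52 reads. The counting intervals of all 6 libraries overlapped. miR-181a-2-3p had 3, 4 and 4 reads in diabetic and 5, 3 and 2 reads in normal libraries, 3.80 to 11.3 CPM. miR-181b-1-3p had 0, 0 and 2 reads against 4, 1 and 2. Both were at or near the 3-read floor throughout.

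The cluster with Mir181c and Mir181d gave the remaining members. miR-181c-5p had levels of 55.7, 56.4 and 47.3 CPM in diabetes against 52.1, 44.7 and 39.6 CPM in normal testes, from 17 to 26 reads each. miR-181c-3p had 22.9, 43.0 and 29.1 CPM against 36.3, 40.6 and 30.2 CPM, from 7 to 20 reads. Diabetic replicate 1 was the lowest for this arm, and for both arms the groups overlapped.

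**Figure D1:**
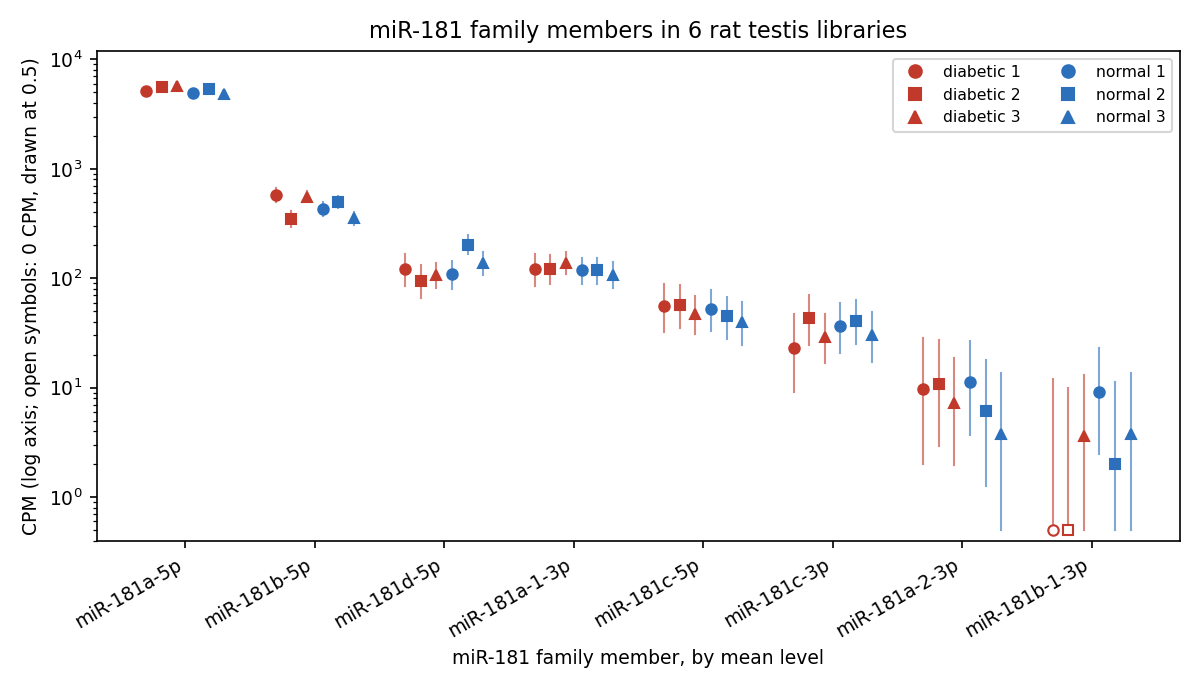
CPM of the 8 miR-181 members (x axis, ordered by mean level) in each of the 6 libraries (y axis, log scale), with diabetic libraries in red, normal ones in blue, symbols for replicates, and lines for the exact 95% Poisson interval of the count, cut off at 0.5 CPM. miR-181a-5p sits between 4821 and 5680 CPM, while miR-181b-1-3p lies at 0 to 9.10 CPM, with open symbols for its libraries at 0.

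In order of mean level the family ran from miR-181a-5p through miR-181b-5p, miR-181d-5p, miR-181a-1-3p, miR-181c-5p, miR-181c-3p and miR-181a-2-3p to miR-181b-1-3p. The first step was 11.4-fold and the next 3.58-fold, and the ranges of these neighbours did not overlap. miR-181d-5p and miR-181a-1-3p did not separate: the former was higher on average by 1.07-fold but above the latter in 2 of 6 libraries. The ranges of miR-181c-5p and miR-181c-3p overlapped, although the 5p arm was higher in 6 of 6 libraries. The last pair also overlapped.

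The 5p arm took nearly all reads of the family. Its 4 listed 3p arms together made up 2.52% to 3.09% of family reads in each library. No miR-181 entry was listed for the 3p arm of Mir181b2 or Mir181d, so this share leaves them out. In the miR-30 family, which also has several paralogous loci, the 3p share was 2.65% to 3.42%, while in the miR-29 family, whose guide strand is the 3p arm, it was 99.7% to 99.9%. The miR-181 family was smaller than both, at 0.631% ± 0.0238 of all reads in diabetes against 0.582% ± 0.0435 in normal testes (SD, n = 3 each). The miR-30 family took 7.86% ± 1.06 and 7.74% ± 0.957, and the miR-29 family 1.20% ± 0.0873 and 1.10% ± 0.0487 (SD, n = 3 each). These shares are descriptions with no test.

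As counted, the arm ratio differed between miR-181a, pooled over its hairpins, and miR-181c. miR-181a-5p outnumbered its 3p arms by 37.8-fold to 43.6-fold, a narrow range over the 6 libraries. By contrast miR-181c-5p outnumbered miR-181c-3p by only 1.10-fold to 2.43-fold, so that every library had the c ratio far below the a ratio. The c ratio rested on 17 to 26 reads of the 5p arm and 7 to 20 of the 3p arm. Both closely resemble more abundant miR-181a arms, and how reads matching several paralogs were shared was not given. No arm ratio was formed for miR-181b, because miR-181b-1-3p had 0 reads in diabetic replicates 1 and 2. Within miR-181a, the 3p arm of the chromosome 13 locus exceeded that of the chromosome 3 locus by 10.4-fold to 28.5-fold, on 2 to 5 reads of the latter. miR-181c-5p was below miR-181d-5p in all 6 libraries, at 0.220 to 0.600 of its reads.

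There were 6 ratios tested between diabetic and normal testes, and on the recovered reads the groups overlapped in each. The ratio of miR-181a-5p to its 3p arms had a geometric mean of 40.3 in diabetic and 41.5 in normal libraries (two-sided exact permutation p = 0.7). That of miR-181c-5p to miR-181d-5p was 0.495 against 0.312, with an exact permutation p of 0.3, and that of miR-181c-5p to miR-181c-3p was 1.73 against 1.28, also with an exact p of 0.3. The exact p was 0.6 for the 2 locus-specific 3p arms of miR-181a, 0.8 for miR-181a-5p to miR-181b-5p and 0.5 for miR-181a-5p to miR-181c-5p. Adjusted over the 6 ratios by Benjamini-Hochberg, every exact p became 0.8. With 3 against 3 libraries the test cannot go below 0.1, so it could not have passed 0.05. On reads thinned to the smallest library, the ratio of miR-181c-5p to miR-181d-5p no longer overlapped between groups, with a log2 difference of 0.77 against 0.67 on all reads and the smallest possible exact p of 0.1. The size of these differences rested on single libraries. That of miR-181c-5p to miR-181d-5p was 0.42 without normal replicate 2, and that of miR-181c-5p to miR-181c-3p went from 0.44 to 0.20 without diabetic replicate 1. For the 2 locus-specific 3p arms, the log2 difference of -0.37 became -0.04 without normal replicate 3, -0.23 without diabetic replicate 2, -0.60 without diabetic replicate 3 and -0.76 without normal replicate 1.

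**Figure D2:**
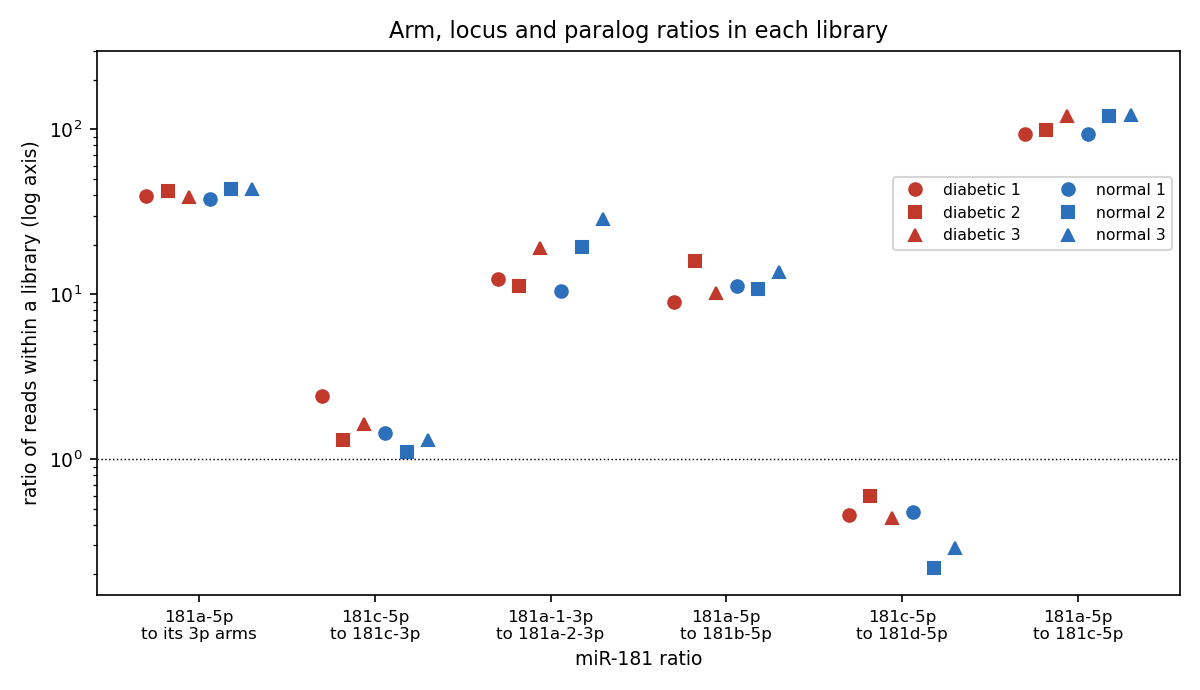
Ratios of reads within each library (y axis, log scale, dotted line at 1) for 6 arm, locus and paralog pairs of the miR-181 family (x axis), with diabetic libraries in red and normal ones in blue. miR-181a-5p stands 37.8-fold to 43.6-fold above its 3p arms in every library, the c arms stand near 1, and the groups overlap for all 6 ratios on these unthinned reads.

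The main comparison asked whether family members differed between diabetic and normal testes. All 8 members were among the 578 miRNAs that entered the limma test, and 0 of 8 had an adjusted p under 0.05. Over all miRNAs tested the share was 0% as well. At an unadjusted p under 0.05 there were also 0 of 8, against 8.82% of all miRNAs, and 0 of 8 passed the study's thresholds of a log2 change of at least 1 with a p under 0.05 (taken as unadjusted), against 4.67%. Of the 8 members, 5 were higher and 3 lower in diabetes on average, while 50.5% of all miRNAs tested were higher. Their median difference was 0.13 on the log2(CPM + 1) scale, against 0.0046 over all miRNAs tested. In bulk tissue, a change in how many cells carry a miRNA and a change in its amount per cell cannot be told apart.

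miR-181a-5p averaged 5483 ± 252 CPM in diabetes against 5038 ± 319 CPM in normal testes (SD, n = 3 each). The log2 difference was 0.12 (SE 0.09), with a 95% interval from -0.07 to 0.32 (limma adjusted p = 0.774). Normal replicate 2 lay within the diabetic range, and the exact permutation p was 0.2. The interval was the narrowest of the family. The difference was 0.07 with TMM factors and 0.02 with upper-quartile factors.

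miR-181d-5p differed most among the members with at least 10 reads in every library. It averaged 108 ± 13.5 CPM in diabetes against 150 ± 48.3 CPM in normal testes (SD, n = 3 each). Its log2 difference was -0.43 (SE 0.26), with an interval from -0.99 to 0.12 (limma adjusted p = 0.724). Normal replicate 1 was within the diabetic range, and the exact permutation p was 0.2. Without normal replicate 1 the difference was -0.64 with an unadjusted limma p of 0.0295, and without normal replicate 2 it shrank to -0.19 with an unadjusted p of 0.49. Its size thus rested on single normal libraries.

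miR-181b-5p averaged 494 ± 125 CPM in diabetes against 428 ± 73.5 CPM in normal testes (SD, n = 3 each). Its log2 difference was 0.18 (SE 0.20), with an interval from -0.24 to 0.61 (limma adjusted p = 0.796). Its size moved most with diabetic replicate 2, without which it was 0.41 with an unadjusted p of 0.039. Leaving out diabetic replicate 1 or 3 gave 0.05 and 0.08, and leaving out normal replicate 2 or 3 gave 0.30 and 0.05. With upper-quartile factors it was 0.08.

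Because miR-181b-5p and miR-181d-5p differ at 1 base, and how reads matching both were shared was not stated, their sum was also examined after the values had been seen. It was 697.3, 443.5 and 662.5 CPM in diabetes against 541.7, 702.4 and 490.4 CPM in normal testes. The groups overlapped. For miR-181a-5p and miR-181c-5p, which differ by 1 deleted base, the sum followed miR-181a-5p. The 3p arms miR-181a-1-3p and miR-181c-3p share a seed and differ by 2 substitutions. Their sum averaged 158 CPM in diabetes (SD 12.6) and 150 CPM in normal testes (SD 10.9), and the groups overlapped.

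miR-181a-1-3p was the only member whose groups did not overlap. It averaged 127 ± 9.96 CPM in diabetes against 114 ± 5.95 CPM in normal testes (SD, n = 3 each). The log2 difference was 0.15 (SE 0.22), with an interval from -0.32 to 0.62 (limma adjusted p = 0.831). Its exact permutation p was 0.1, the smallest possible. One of 8 members, 12.5%, was thus wholly higher in diabetes, beside 7.96% of all miRNAs tested. Wholly lower were 0 of 8, beside 6.92%. The separation depended on scaling by library total. With DESeq2 size factors the lowest diabetic library was at 118.3 and the highest normal one at 118.6 CPM, and the groups also overlapped with TMM factors, upper-quartile factors and reads thinned to the smallest library. The log2 difference itself was 0.10 with TMM factors, 0.04 with upper-quartile factors and 0.08 without diabetic replicate 3.

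miR-181c-5p had a log2 difference of 0.22 (SE 0.33, interval -0.48 to 0.93) and miR-181c-3p one of -0.20 (SE 0.41, interval -1.08 to 0.67). Their limma adjusted p-values were 0.831 and 0.846. The arms of the same hairpin thus lay on opposite sides of 0, each within its interval. Without diabetic replicate 1, the difference of miR-181c-3p was -0.0021, and without diabetic replicate 2 it was -0.44. It was -0.11 without normal replicate 2 and -0.32 without normal replicate 3. That of miR-181c-5p was 0.13 without normal replicate 3. Upper-quartile factors gave -0.31 for the 3p arm and 0.12 for the 5p arm.

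For miR-181a-2-3p the log2 difference was 0.45 (SE 0.70, interval -1.05 to 1.94, limma adjusted p = 0.835). It moved between 0.12 without normal replicate 3 and 0.80 without normal replicate 1. miR-181b-1-3p had a limma adjusted p of 0.71. No fold is given, because all diabetic libraries held 3 reads or fewer and the normal mean lay below the 3-read floor of every library. Without diabetic replicate 3, its only diabetic library with a read, its unadjusted limma p was 0.0375.

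**Figure D3:**
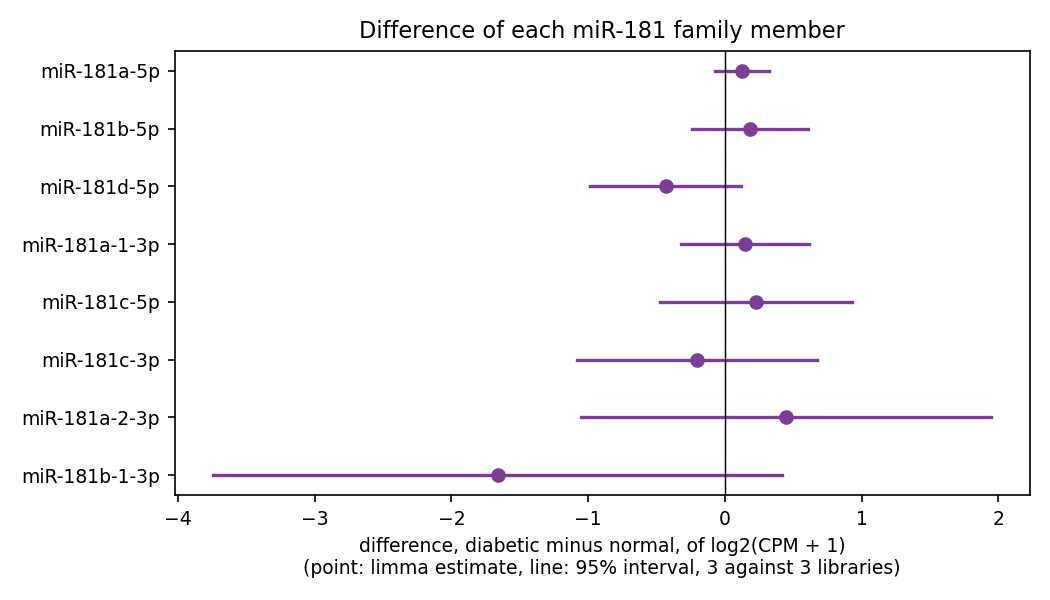
Difference in log2(CPM + 1), diabetic minus normal (x axis), for each miR-181 member (y axis, by mean level), with points for limma estimates and lines for 95% intervals from 3 against 3 libraries. Every interval crosses 0, from the narrow one of miR-181a-5p (-0.07 to 0.32) to the widest, of miR-181b-1-3p, whose point depends on the pseudocount.

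**Figure D4:**
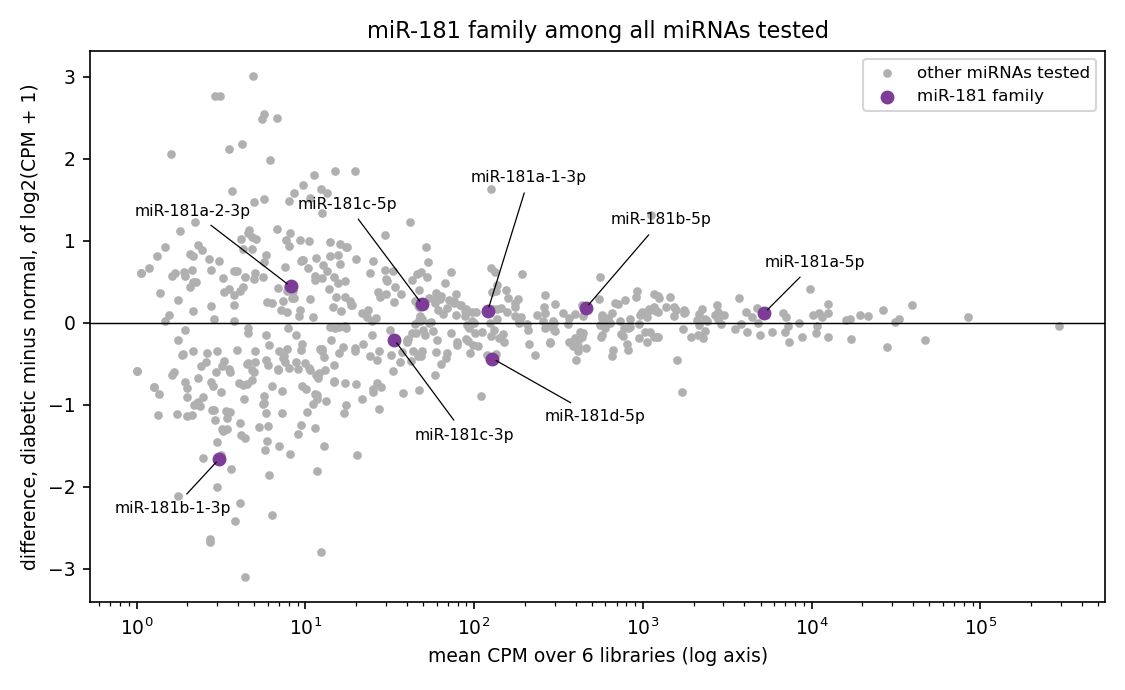
Difference in log2(CPM + 1), diabetic minus normal (y axis), against mean CPM over 6 libraries (x axis, log scale) for the 578 miRNAs tested, with the 8 miR-181 members in purple. The members lie inside the cloud of other miRNAs, and the largest differences of family and cloud alike are found at low levels.

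The summed level of the 8 members was 6105, 6244 and 6568 CPM in diabetic libraries and 5657, 6318 and 5497 CPM in normal ones. Normal replicate 2 exceeded 2 of the 3 diabetic libraries, so the groups overlapped. The mean difference was 0.12 on the log2 scale, mostly from miR-181a-5p, and no p is given for this sum. It was 0.08 without normal replicate 3 and 0.18 without normal replicate 2.

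Across the 6 libraries, the listed miRNAs outside the family whose log2(CPM + 1) was most like that of miR-181a-5p were miR-29b-3p (Pearson r = 0.94), miR-127-3p (r = 0.93) and miR-676 (r = 0.92). They came from 252 candidates with at least 10 reads in every library, and r over so few libraries is a description with no p. Within the family, miR-181a-1-3p had r = 0.79 with miR-181a-5p, higher than 94.8% of those candidates. miR-181b-5p had r = 0.35, miR-181c-5p r = 0.33 and miR-181d-5p r = -0.14. miR-29b-3p, like miR-181a-5p, was highest in diabetic replicates 2 and 3, at 336.0 and 311.2 CPM, and it was lowest in normal replicate 3. All these values share each library's total, so a change in its most abundant miRNAs moves them together.

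Since miR-181 is rich in lymphocytes, leukocyte miRNAs were read beside it. All 6 of the list (miR-142-5p, miR-142-3p, miR-150-5p, miR-155-5p, miR-223-3p and miR-146a-5p) were tested, 2 higher and 4 lower in diabetes, and 0 had an adjusted p under 0.05 in limma. One of them, miR-142-3p, had an unadjusted p under 0.05, against 8.82% of all miRNAs tested, at 339 ± 31.2 against 465 ± 64.8 CPM (SD, n = 3 each). Their sum ran from 1718 to 1830 CPM in diabetic and from 1754 to 2276 CPM in normal libraries. miR-223-3p was lower only on the log2(CPM + 1) scale, with 0 CPM in diabetic replicates 2 and 3 and in normal replicate 1. Its mean was higher in diabetes, at 5.47 ± 9.47 against 4.53 ± 3.99 CPM (SD, n = 3 each). The endothelial pair (miR-126a-3p and miR-126a-5p) summed to 11722 to 13783 against 8662 to 11086 CPM, with both members higher in diabetes on average. The Sertoli pair (miR-202-5p and miR-202-3p) summed to 4102 to 4467 against 3262 to 3693 CPM. Its members went opposite ways, with log2 differences of 0.30 for miR-202-5p and -0.18 for miR-202-3p. In each pair 1 member had an unadjusted limma p under 0.05, beside the same 8.82%, and 0 had an adjusted one. The red blood cell list of 4 summed to 544 to 782 against 678 to 741 CPM and the peritubular list of 3 to 85438 to 95431 against 78656 to 96800 CPM, with 0 members under either threshold. In the germ-cell list of 4, summed above, 2 were higher and 2 lower in diabetes, and 0 were under either threshold. No defining marker of any list was at 0 in all libraries. The part of cell composition in the miR-181 values was not tested.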

How the data were processed

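Small RNA of testicular tissue was sequenced single-end, primers and adaptors were removed, and known miRNAs were annotated by miRBase family. The authors deposited CPM rounded to 1 decimal, although the column headings say TPM. The submitters' processing notes name Bowtie 0.12.2, HISAT2 2.0, StringTie 1.3.0 and mm8, a mouse assembly, with no role. The rat build used, and how reads matching several paralogs were shared, were not given in the sources used here. The labels' extraction text describes a poly(A) library, which is no small RNA library; the design text and methods were followed instead. Only the separate labels show that libraries came from separate animals, so p-values measure the spread between these samples.

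Each library's values were turned back into whole reads by searching for its total; 100% of values fit to within rounding. limma 3.58.1 in R 4.3.3 (eBayes with trend, Benjamini-Hochberg) was fitted to log2(CPM + 1) of the 578 miRNAs that reached 1 CPM in 3 or more libraries, and tested on simulated data. Differences understate changes of scarce miRNAs. Exact permutation tests were two-sided (scipy 1.17.1). All members were named; the miRNAs most like miR-181a-5p followed a fixed rule. The members and lists were chosen with earlier results of these data known. Alternatives included edgeR 4.0.16 and DESeq2 1.42.0 on the recovered reads, other scalings, filters and pseudocounts, a replicate block and leaving out each replicate. Sequences came from RefSeq (GRCr8).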

Additional observations from a re-analysis of the deposited data

How the results depend on the processing

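Under every alternative run, 0 members had an adjusted p under 0.05. The number with an unadjusted p under 0.05, 0 in the report, lay between 0 and 1 in the fits without a single replicate, as did the number past the study's thresholds. The 1 member under 0.05 was miR-181b-5p without diabetic replicate 2, miR-181b-1-3p without diabetic replicate 3 and miR-181d-5p without normal replicate 1, and the 1 past the study's thresholds was miR-181b-1-3p, which is near the 3-read floor. The cause was not tested. No member's difference changed sign in 85 comparisons with other settings or in 48 that left out one replicate, and 3 of the latter passed the unadjusted threshold. Among the 85, the fits that changed only the eBayes trend, the filter or the replicate block left each difference as it was. Their sign could therefore not change. The summed level's log2 difference, 0.12, was 0.0664 with TMM factors and lay between 0.0763 and 0.1767 in the fits without a single replicate. Upper-quartile factors moved it to 0.0095 and the median of all miRNAs from 0.0046 to -0.10. Such a factor scales every miRNA of a library alike, so the gap between sum and median was nearly fixed in advance. The difference in log2 ratio of miR-181a-5p to miR-181b-5p, -0.06, turned to 0.1061 without diabetic replicate 1, 0.0154 without diabetic replicate 3 and 0.0411 without normal replicate 3 and lay between -0.3043 and 0.1061 in these fits. That of miR-181a-5p to its 3p arms, -0.04, lay between -0.1093 and -0.0065, and that of miR-181a-5p to miR-181c-5p, -0.11, between -0.2307 and -0.0332. On thinned reads these were -0.0959 and -0.1646, and that of the 2 locus-specific 3p arms was -0.1703. Those causes were not tested either. Over all miRNAs tested, limma's eBayes without the trend called 8 of 578 at an adjusted p under 0.05, the edgeR test on recovered reads 2 and the DESeq2 test 1, against 0 in the report, and 0 were members. At least 10 reads in every library left 5 members to test.

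Same-numbered libraries were not stated to be paired, and their deviations from the group means correlated at 0.0065, -0.069 and -0.089 over 257 miRNAs. With the replicate block 0 members passed at either threshold, adjusted or not, as without it, and the block called 1 miRNA in all at an adjusted p under 0.05 in limma.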
